A study of Mus musculus with 6 samples.

Results

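The interferon-inducible GTPases described here are 7 mouse genes of 2 families, the immunity-related GTPases Irgm1, Irgm2, Igtp and Iigp1 and the guanylate-binding protein genes Gbp2, Gbp3 and Gbp7. They were looked up on 6 Affymetrix arrays by their gene symbol, taking transcript clusters (the probe groups of one gene) annotated with exactly 1 symbol, and the brightest where a gene had several. Of the 7 genes, 4 (Irgm1, Iigp1, Gbp3 and Gbp7) had such a cluster, out of 19938 genes in all. The other 3 lay on clusters that the annotation assigns to more than 1 gene: Irgm2 and Igtp share a cluster, and Gbp2 shares one with Gbp2b, so their probes cannot be split between the genes named. Of the 4 genes, 3 lay above the level needed for testing, as did 15455 genes in all.

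The samples were mouse embryonic fibroblasts (MEFs), mixed connective tissue cells grown out of minced embryos, from 3 Rb1L/L and 3 Rb1+/+ cultures with 1 array each. Embryos were at stage E13.5 and cells were used at passage 4 while proliferating; the labels name no interferon, infection or other treatment for either genotype and give no strain. Rb1 encodes the retinoblastoma protein pRb, and the L allele, carried in the germline, is known to change the pocket of pRb that docks LXCXE-containing partners. The question put to the arrays was which genes differ between the genotypes. Fibroblast genes were bright in all cultures, with Vim at log2 13.37 ± 0.05 in Rb1L/L and 13.49 ± 0.02 in Rb1+/+ cultures and Col1a1 at 12.43 ± 0.04 and 12.61 ± 0.18 (SD, n = 3 each). The Y-linked gene Eif2s3y stood at log2 8.47 in Rb1L/L replicate 1 and 8.36 in Rb1+/+ replicate 1 and at 3.63 or lower in the other 4 cultures, so replicate 1 of both genotypes was of male type. Values are log2 RMA values, a scale that is normalized between arrays. Arrays have no read depth, and how many there are sets the precision.

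Immunity-related GTPases and guanylate-binding proteins are cell-autonomous defence proteins that interferons induce in most mouse cells. Effector proteins of the first family, such as the product of Iigp1, load onto the vacuole in which a parasite such as Toxoplasma lives and break its membrane. The products of Irgm1, Irgm2 and Igtp are known as regulators that sit on the cell's own membranes and hold the effectors inactive there. Guanylate-binding proteins are large GTPases of the dynamin superfamily that assemble on pathogen vacuoles and on bacteria. Their genes carry interferon-stimulated response elements (ISRE), bound by interferon regulatory factors and by a complex that holds Stat2 and Irf9, and in part gamma-activated sites (GAS), a second kind of interferon-responsive element.

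The promoter sequences of the members are shown because each holds an ISRE core, and 3 of them a GAS core, upstream of a start. RefSeq promoter windows (build GRCm38.p6, from 250 bases before to 50 bases after an annotated start) were at hand for 6 of the 7 members, Iigp1 not being among them. The ISRE core was searched as GAAA, any 2 bases and GAAA again, and the GAS core as TTCNNNGAA, on both strands, with overlapping matches kept. All 6 members had an ISRE core upstream of a start, against 3.44% of 32851 windows in the genome-wide table (2.98% within the upstream bases alone). A GAS core lay upstream of 3 members, Irgm2, Igtp and Gbp7, against 8.3% of windows (7.02% upstream alone). The stretches of 120 bases that end just before the start are chr11:48871421-48871540 on the minus strand for Irgm1 and, on the plus strand, chr11:58214857-58214976 for Irgm2, chr11:58199436-58199555 for Igtp, chr3:142620543-142620662 for Gbp2, chr3:142559924-142560043 for Gbp3 and chr3:142530216-142530335 for Gbp7. They lie outside the annotated transcript that begins there and are printed 5′ to 3′ along the gene with ISRE and GAS cores in capitals.
Irgm1: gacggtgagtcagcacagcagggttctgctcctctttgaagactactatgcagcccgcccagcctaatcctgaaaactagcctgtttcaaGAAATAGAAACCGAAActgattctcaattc
Irgm2: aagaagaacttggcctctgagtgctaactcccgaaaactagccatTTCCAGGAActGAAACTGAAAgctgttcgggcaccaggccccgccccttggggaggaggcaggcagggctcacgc
Igtp: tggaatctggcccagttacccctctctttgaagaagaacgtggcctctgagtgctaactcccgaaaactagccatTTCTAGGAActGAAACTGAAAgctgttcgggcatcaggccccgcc
Gbp2: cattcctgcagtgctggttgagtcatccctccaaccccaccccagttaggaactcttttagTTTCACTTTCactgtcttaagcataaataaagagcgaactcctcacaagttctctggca
Gbp3: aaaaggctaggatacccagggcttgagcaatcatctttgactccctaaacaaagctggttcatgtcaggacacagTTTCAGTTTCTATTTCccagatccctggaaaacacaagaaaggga
Gbp7: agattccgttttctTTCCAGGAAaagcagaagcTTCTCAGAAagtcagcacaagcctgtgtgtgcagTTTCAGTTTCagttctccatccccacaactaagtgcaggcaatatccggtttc

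In Irgm1 and in Gbp3 the capitals are 2 overlapping ISRE cores, the first of which began 30 bases before the start of Irgm1 and 45 bases before that of Gbp3. The core began 59 bases before the start of Gbp2 and 53 before that of Gbp7, whose 2 GAS cores began 106 and 87 bases before it. A second annotated start of Gbp3 had no match of either kind in its window. In Irgm2 and Igtp, which are neighbours on chromosome 11, a GAS core began 11 bases before the ISRE core, and the 250 upstream bases of the pair share an identical run of 55 bases, whereas no other pair of members shared a run over 13 bases. The same spacing of 11 bases was found in the windows of the effector genes Tgtp1 and Tgtp2. A match is a match of letters and shows no binding.

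**Figure D1:**
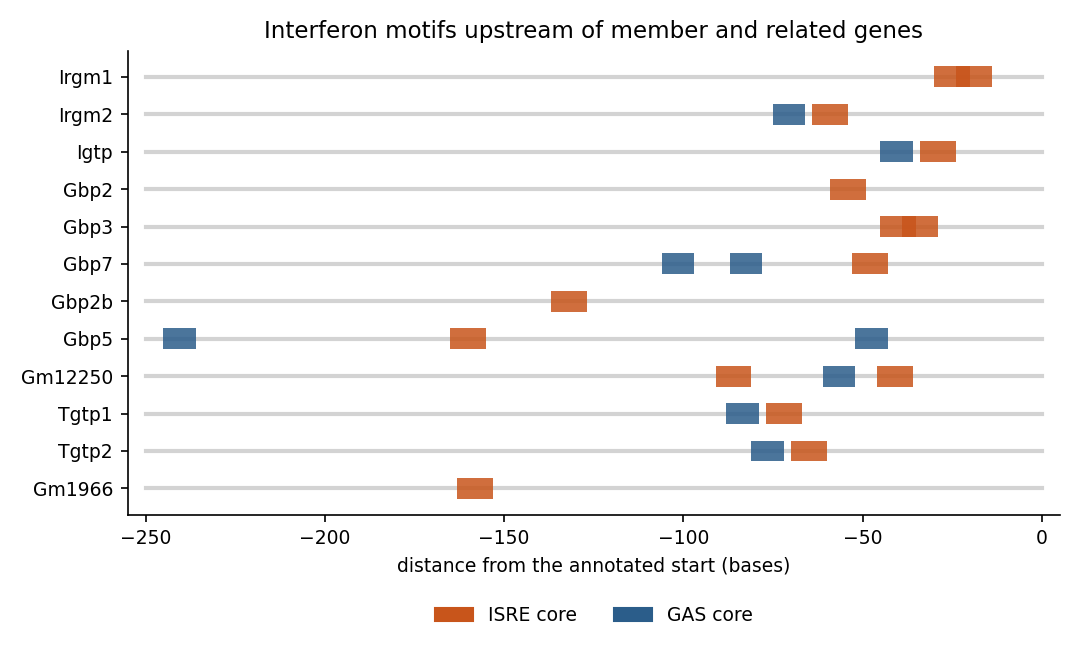
Positions of ISRE cores (orange) and GAS cores (blue) in the 250 bases before the annotated start of 6 members and of the 6 related genes with an ISRE core there, with distance from the start in bases on the x axis. The ISRE cores of the members begin within 64 bases of the start. Those of Gbp2b, Gm1966 and Gbp5 begin 137, 163 and 165 bases before it, and those of Tgtp1 and Tgtp2 77 and 70. The 2 ISRE cores of Gm12250 begin 91 and 46 bases before its start.

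All 3 testable members rose in Rb1L/L cultures, by 2.57-fold to 2.92-fold, in a comparison in which 12.2% of all tested genes changed and 7.12% rose. With the replicate number as a block, which changed no call of a member, 14.4% of genes changed, 7.99% rising and 6.46% falling. Irgm1, a regulator of the immunity-related GTPases, measured log2 11.16, 11.51 and 11.29 in Rb1L/L replicates 1 to 3, against 9.77, 9.65 and 9.91 in Rb1+/+ replicates 1 to 3. The lowest Rb1L/L array was 1.26 above the highest Rb1+/+ array on the log2 scale. The group means were 11.32 ± 0.17 and 9.77 ± 0.13 (SD, n = 3 each), a log2 fold change of 1.55 ± 0.10 (moderated SE) or 2.92-fold, with a 95% interval of 2.49 to 3.43 and a limma adjusted p of 0.000721. Among the 15455 genes it ranked 19 by size of the rise and 5 by p-value.

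Gbp3, a guanylate-binding protein gene in a cluster on chromosome 3, measured log2 6.59, 7.16 and 7.06 in Rb1L/L replicates 1 to 3, against 5.56, 5.44 and 5.25 in Rb1+/+ replicates 1 to 3. The groups were separated by 1.03 on the log2 scale, and the Rb1+/+ arrays lay near the floor of detection, set at log2 5.084. The rise was 1.52 ± 0.15 (SE), 2.87-fold with a 95% interval of 2.28 to 3.62 (limma adjusted p = 0.00233).

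Gbp7, its neighbour, measured log2 7.53, 8.13 and 8.08 in Rb1L/L replicates 1 to 3, against 6.46, 6.50 and 6.70 in Rb1+/+ replicates 1 to 3. Here too the groups did not overlap, with a gap of 0.83; of all tested genes 16.2% had every Rb1L/L array above every Rb1+/+ array and 18.3% had every one below. The rise was 1.36 ± 0.15 (SE), 2.57-fold with a 95% interval of 2.02 to 3.27 (limma adjusted p = 0.00306). The intervals of the 3 members overlap, and whether their changes differ was not tested.

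Iigp1, the effector gene, stayed at the bottom of the scale in both genotypes. Its values were log2 3.95, 4.08 and 4.01 in Rb1L/L replicates 1 to 3, against 3.88, 3.91 and 3.77 in Rb1+/+ replicates 1 to 3, all below the floor. The mean difference was 0.16, and the nearest arrays of the groups were 0.04 apart. Fitted together with all 19938 genes, without the floor, it did not pass (limma adjusted p = 0.175). A value below the floor does not show that the transcript is absent.

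The shared clusters of the remaining members rose too, as tested in a fit over all 17922 named clusters above the floor, of which 13% changed, 7.85% rising and 5.17% falling. The cluster of Irgm2 and Igtp, both regulator genes, measured log2 7.12, 7.83 and 7.88 in Rb1L/L replicates 1 to 3, against 5.52, 5.38 and 5.65 in Rb1+/+ replicates 1 to 3. The groups were 1.47 apart at their nearest arrays, the widest gap among the Irg and Gbp clusters. Its rise of 2.09 ± 0.19 (SE), 4.27-fold with a 95% interval of 3.16 to 5.76, had a limma adjusted p of 0.00168.

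The cluster annotated to Gbp2 and Gbp2b measured log2 8.69, 8.95 and 9.04 in Rb1L/L replicates 1 to 3, against 7.0, 6.98 and 7.47 in Rb1+/+ replicates 1 to 3. It rose by 1.74 ± 0.14 (SE), 3.35-fold with a 95% interval of 2.66 to 4.22 (limma adjusted p = 0.0011). Gbp2b also has a cluster of its own, which read 4.43 ± 0.11 in Rb1L/L and 4.42 ± 0.04 in Rb1+/+ cultures (SD, n = 3 each), below the floor in every array.

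**Figure D2:**
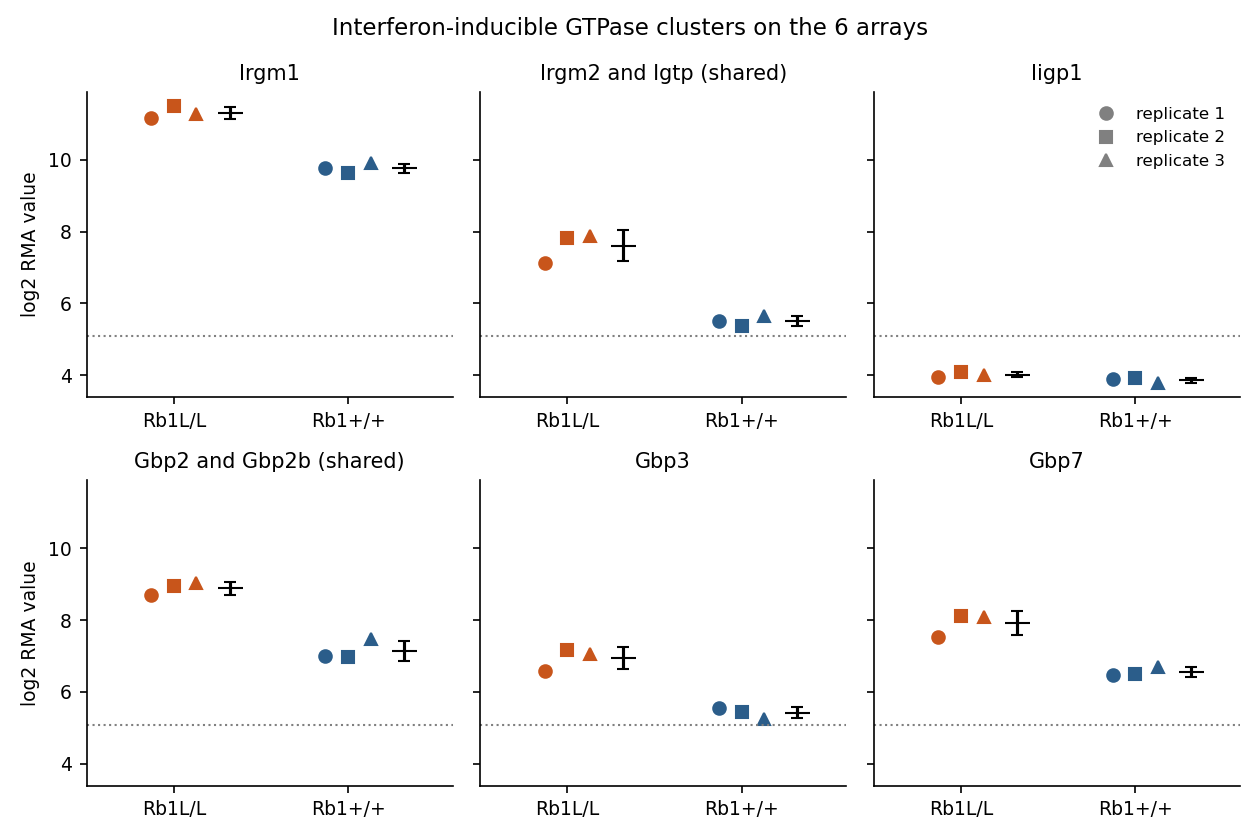
Log2 RMA values of the 6 member clusters, with Rb1L/L arrays in orange and Rb1+/+ arrays in blue, a marker shape for each replicate number, the mean ± SD (n = 3) in black and the floor of log2 5.084 dotted. In 5 of the 6 panels every Rb1L/L array lies at least 0.83 above every Rb1+/+ array, and Iigp1 lies below the floor in both genotypes. Of all tested genes 16.2% had every Rb1L/L array above every Rb1+/+ array, by any distance.

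Within Rb1L/L, replicate 1 was the lowest and replicate 2 the highest array for each of the 3 testable members, while no Rb1+/+ array was lowest for more than 1 of them. In the shared clusters of Irgm2 and Igtp and of Gbp2 and Gbp2b, Rb1L/L replicate 1 was also the lowest. There replicate 3 was the highest, at 7.88 and 9.04. Compared within same-numbered pairs, the Rb1L/L minus Rb1+/+ difference of Irgm1 was 1.40, 1.86 and 1.38 for pairs 1 to 3. For Gbp3 it was 1.03, 1.72 and 1.81, and for Gbp7 1.07, 1.63 and 1.38. The cluster of Irgm2 and Igtp had pair differences of 1.59, 2.45 and 2.23, and that of Gbp2 and Gbp2b 1.69, 1.97 and 1.56. In each of the 5 clusters all 3 differences were at 1.03 or above. The male type of pair 1 goes with the smallest difference for 3 of the 5 clusters, and its part in this was not tested.

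Markers of macrophages, cells that express these GTPases strongly, were measured in the same cultures. Of 16 listed markers 15 were tested, 3 rose (Adgre1, Cd14 and C1qa) and 1 fell (Cx3cr1), with a median log2 fold change of 0.27 against -0.02 over all genes. For this and the marker counts below, 7.12% of all tested genes rose and 5.08% fell. The mean level of the macrophage markers ranged from log2 6.87 to 7.21 over the Rb1L/L arrays and from 6.61 to 7.03 over the Rb1+/+ arrays. Of the 16 Aif1 lay below the floor. Within pairs 1 to 3 the mean level of the markers differed by 0.07, 0.59 and 0.03. Of the markers that rose, Adgre1 differed by 0.63, 1.72 and 0.49 in these pairs. Cd14 differed by 0.28, 0.40 and 0.37, and C1qa by 0.07, 0.51 and 0.45. Cx3cr1, which fell, differed by -0.45, -0.10 and -0.48. With pair 2 left out, the rises of Irgm1, Gbp3 and Gbp7 were 1.39, 1.42 and 1.23 and all passed. None of the 9 T and NK cell markers, from cells that make interferon gamma, passed; 5 of them were below the floor. Of the 10 fibroblast markers 2 fell, Col3a1 (-0.33) and Lum (-0.39), and with the replicate block Dcn (-0.31, adjusted p = 0.0346, against 0.113 without it) fell as well. Of 4 tested endothelial markers Kdr rose (0.58), and none of 3 tested epithelial markers passed. The part of these cell markers in the rise of the GTPases was not tested. Fewer cells of a type and less RNA per cell cannot be told apart in such bulk cultures.

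**Figure D3:**
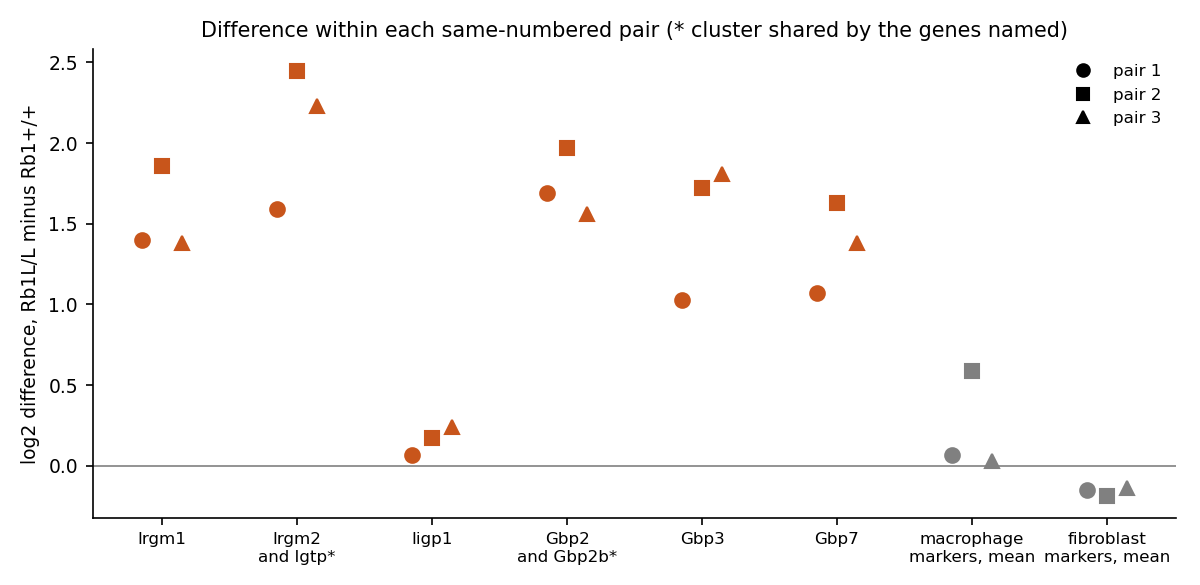
Log2 difference, Rb1L/L minus Rb1+/+, within each same-numbered pair for the member clusters (orange) and for the mean level of 16 macrophage and 10 fibroblast markers (grey). In pairs 1 to 3 the mean of the macrophage markers differed by 0.07, 0.59 and 0.03. Over the same pairs Irgm1, Gbp3 and Gbp7 differed by 1.03 to 1.86.

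No further Gbp gene passed the test. Of 8 further Gbp genes 6 had a cluster of their own and 5 of these were below the floor, with Gbp5, which promotes inflammasome assembly in macrophages, at log2 3.77 ± 0.08 in Rb1L/L and 3.77 ± 0.14 in Rb1+/+ cultures (SD, n = 3 each). Gbp4 (4.94 and 5.01), Gbp8 (4.80 and 4.72) and Gbp11 (3.47 and 3.56) were likewise dim in Rb1L/L and Rb1+/+ cultures. Gbp9, the member of that set above the floor, differed by 0.20 ± 0.08 (SE; limma adjusted p = 0.153). A cluster shared by 6 genes from Gbp4 to Gbp11 averaged 4.53 in Rb1L/L and 4.21 in Rb1+/+ cultures, below the floor. The genes that rose (Gbp3, Gbp7 and the Gbp2 cluster) lie in the group on chromosome 3 that also holds Gbp5 and Gbp2b, while Gbp4, Gbp6, Gbp8, Gbp9, Gbp10 and Gbp11 lie on chromosome 5.

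Among the further immunity-related GTPases and their relatives, the clusters shared by the effector genes Tgtp1 and Tgtp2 rose, whereas none of the 4 tested genes with a cluster of their own passed. The first Tgtp cluster measured log2 6.67, 7.46 and 6.99 in Rb1L/L replicates 1 to 3, against 5.95, 5.62 and 6.34 in Rb1+/+ replicates 1 to 3, a rise of 1.07 ± 0.22 (SE; limma adjusted p = 0.0217). The second rose by 1.00 ± 0.20 (adjusted p = 0.0185). These probes cover near-identical genes, so which of them rose cannot be told. Pair 2 had the widest difference in both, with 0.72, 1.84 and 0.65 for pairs 1 to 3 in the first cluster and 0.72, 1.64 and 0.63 in the second. Without pair 2 the difference of either cluster was 0.68, with adjusted p = 0.0795 and 0.0755. Without pair 1 the differences were 1.25 and 1.14 (adjusted p = 0.0949 and 0.0848), and without pair 3 they were 1.28 and 1.18 (adjusted p = 0.0569 and 0.0539). Without Rb1+/+ replicate 1 they were 1.06 and 0.97 (adjusted p = 0.0686 and 0.0622). The first did not pass without Rb1L/L replicate 2 (0.86, adjusted p = 0.0601) or Rb1L/L replicate 3 (1.10, adjusted p = 0.0524) either.

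Gm12250, which encodes the effector Irgb10 and lies next to Igtp, read 5.24 ± 0.05 in Rb1L/L and 5.18 ± 0.06 in Rb1+/+ cultures (SD, n = 3 each), a difference of 0.06 (limma adjusted p = 0.559). Irgc1, known from testis, and Irgq, a relative without a known defence role, differed by 0.03 and 0.00. Gm1966 differed by 0.16 (adjusted p = 0.186), and Gm4951 lay below the floor. Ifi47, which shares its cluster with an olfactory receptor gene, differed by 0.21 ± 0.07 (SE; adjusted p = 0.0811).

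A cluster of Gvin1, a very large inducible GTPase, and its copy Gm4070 rose by 0.55 ± 0.13 (SE; adjusted p = 0.0311), a call that held in the fit with the replicate block but in only 1 of 6 fits without 1 array. Further clusters of these copies differed by 0.51 and 0.42 and passed with the block alone (adjusted p = 0.0157 and 0.0255, against 0.0524 and 0.0744). Both clusters shared by 9930111J21Rik1 and 9930111J21Rik2, related genes on chromosome 11, differed by -0.30 and -0.31, again past the threshold with the block alone (adjusted p = 0.0381 and 0.0436).

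**Figure D4:**
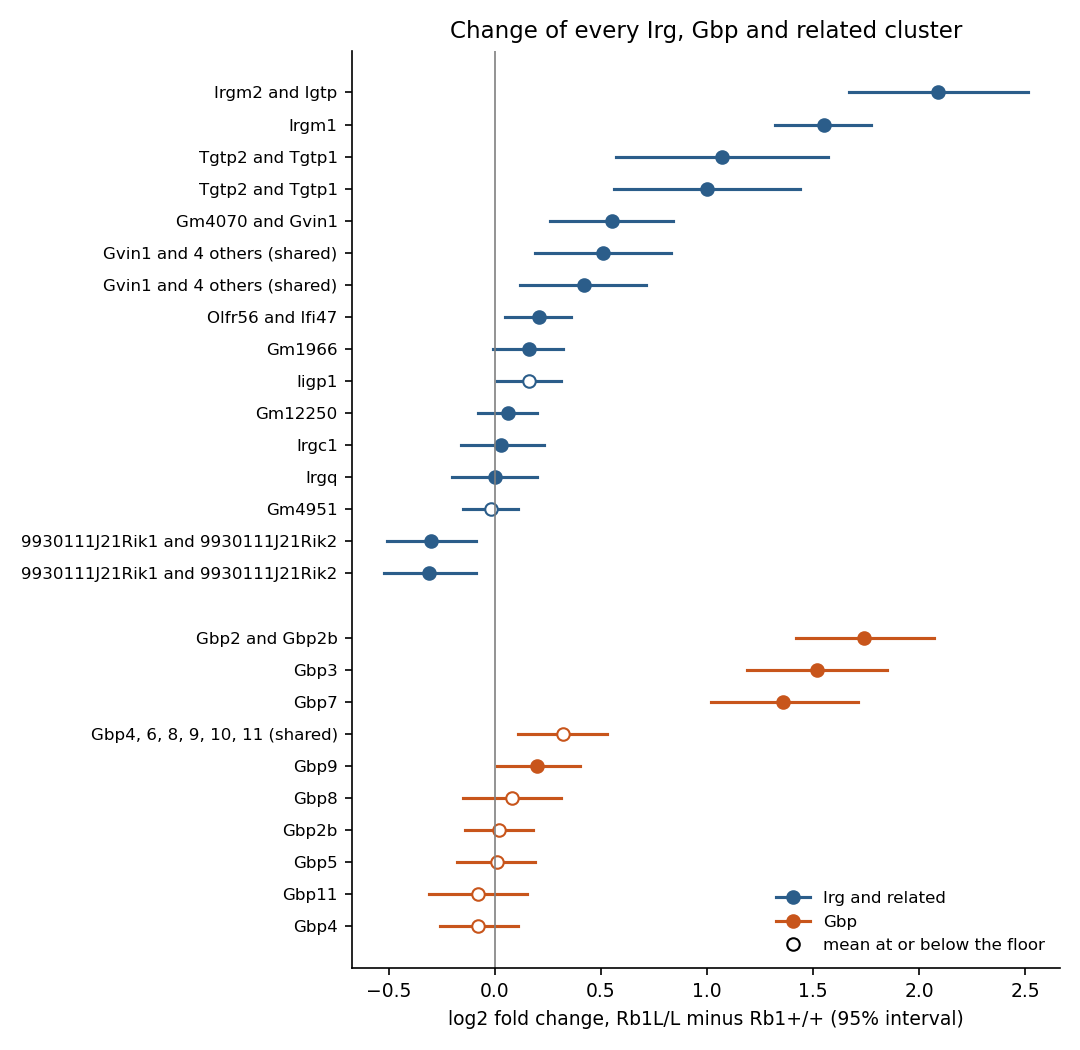
Log2 fold change, Rb1L/L minus Rb1+/+, with its 95% interval, for all 26 clusters annotated to Irg genes and relatives (blue) or Gbp genes (orange), from the fit without the floor; open circles mark clusters with a mean at or below it. The 5 member clusters from Gbp7 (1.36) to Irgm2 and Igtp (2.09) lie above all others, the Tgtp clusters follow at 1.00 and 1.07, and the remainder lie between -0.31 and 0.55.

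Some genes that did not pass or lay below the floor held such cores too. The stretch before Gm12250 (chr11:58183723-58183842, plus strand) and the 150 bases before Gbp2b (chr3:142594697-142594846, plus strand) are shown for comparison with those of the members, with ISRE and GAS cores in capitals.
Gm12250: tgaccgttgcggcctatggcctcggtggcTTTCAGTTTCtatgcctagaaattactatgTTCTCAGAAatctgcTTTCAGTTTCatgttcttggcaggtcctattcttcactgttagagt
Gbp2b: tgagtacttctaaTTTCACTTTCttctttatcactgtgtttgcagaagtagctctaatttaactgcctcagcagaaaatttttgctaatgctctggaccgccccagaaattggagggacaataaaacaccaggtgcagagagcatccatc

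Gm12250 has 2 ISRE cores, which begin 91 and 46 bases before its start, and a GAS core between them at 61 bases. Its nearer ISRE core thus lies at a distance like those of the members, although Gm12250 did not pass. Gbp2b has an ISRE core of the same letters as that of Gbp2, but 137 bases before its start. Gbp5 has an ISRE core 165 bases and GAS cores 245 and 52 bases before its start. No window of Irgq or Ifi47 held either core.

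Genes of interferon signalling were read from lists of its components. The lists hold different kinds of genes, and their counts were not compared by a test. A rise of a listed gene does not show that it lies upstream of the rise of the GTPases. In the type I interferon list, 5 of 8 tested genes rose and none fell, with a median log2 fold change of 0.84. Of all tested genes 7.12% rose and 5.08% fell. Stat2 measured log2 9.60, 10.11 and 10.22 in Rb1L/L replicates 1 to 3, against 8.46, 8.55 and 8.55 in Rb1+/+ replicates 1 to 3 (rise 1.46 ± 0.14 SE, limma adjusted p = 0.00251). Irf9, its partner in the ISRE-binding complex, rose by 1.45 ± 0.17 (adjusted p = 0.0036), and the regulatory factor gene Irf7 by 2.23 ± 0.25 (adjusted p = 0.00326). Usp18, a feedback inhibitor at the receptor, also rose; the fifth gene, Irf3, rose by 0.22. The receptor genes Ifnar1 and Ifnar2 differed by -0.05 and -0.06, and the ligand genes Ifna4 (4.84 in Rb1L/L and 4.91 in Rb1+/+ cultures) and Ifnb1 (4.42 and 4.44) were below the floor.

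In the interferon gamma list, 1 of 10 tested genes rose and none fell (median -0.04), where 7.12% of all tested genes rose and 5.08% fell. The gene that rose was Irf1, a transcription factor that drives many Gbp genes, with log2 7.76, 7.96 and 7.78 in Rb1L/L replicates 1 to 3, against 7.45, 7.17 and 7.51 in Rb1+/+ replicates 1 to 3 (0.45 ± 0.10 SE, limma adjusted p = 0.0255). The ligand gene Ifng differed by -0.09, the receptor genes Ifngr1 and Ifngr2 each by -0.07, and the feedback inhibitor gene Socs1 by 0.18 (adjusted p = 0.127).

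Of 10 tested targets typical of interferon gamma, 3 rose and none fell, where 7.12% of all tested genes rose and 5.08% fell. Those that rose were the chemokine gene Cxcl10 by 0.70, the adhesion gene Icam1 by 0.51 and Cd274, which encodes the checkpoint ligand PD-L1, by 0.42. Antigen presentation genes of class II did not pass. H2-Ab1 differed by -0.17, H2-Eb1 by -0.16 and H2-DMa by -0.34, H2-Aa and Cd74 lay below the floor, and their regulator Ciita differed by -0.01.

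Genes of the machinery with which these GTPases work were listed too. Of 16 tested vacuole targeting and autophagy genes 1 rose and none fell (median -0.02), where 7.12% of all tested genes rose and 5.08% fell. It was Trim21, a ubiquitin ligase that is itself interferon-induced, at log2 8.01, 8.44 and 8.30 in Rb1L/L replicates 1 to 3, against 7.27, 6.95 and 7.18 in Rb1+/+ replicates 1 to 3 (1.12 ± 0.12 SE, adjusted p = 0.00302). The conjugation genes Atg3, Atg5, Atg7 and Atg16l1, known to be needed for placing the GTPases on vacuoles, differed by 0.15, 0.09, -0.16 and 0.05. With the replicate block Becn1 (0.28, adjusted p = 0.0256) rose and Gabarapl1 (-0.29, adjusted p = 0.0292) fell as well.

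None of 5 tested genes of the cytosolic inflammasome passed. For this count and the next, 7.12% of all tested genes rose and 5.08% fell. With the replicate block Gsdmd, which encodes the pore protein of pyroptosis, rose (0.38, adjusted p = 0.0163) and the DNA sensor gene Aim2 fell (-0.41, adjusted p = 0.01). Of 9 tested members of the wider dynamin superfamily, none rose and Dnm1l, which encodes the mitochondrial fission enzyme, fell by 0.29 on the log2 scale (adjusted p = 0.0152). With the replicate block Atl3 (0.26, adjusted p = 0.0467) rose and Dnm1 (-0.24, adjusted p = 0.0464) fell. The interferon-induced dynamin relatives Mx1 and Mx2 lay below the floor on average and were not among those tested. Mx2 read 4.73 ± 0.25 in Rb1L/L and 3.83 ± 0.04 in Rb1+/+ cultures (SD, n = 3 each). In the fit without the floor Mx2 passed, with a rise of 0.90 (limma adjusted p = 0.0044). Mx1 did not pass there (0.13, adjusted p = 0.242).

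**Figure D5:**
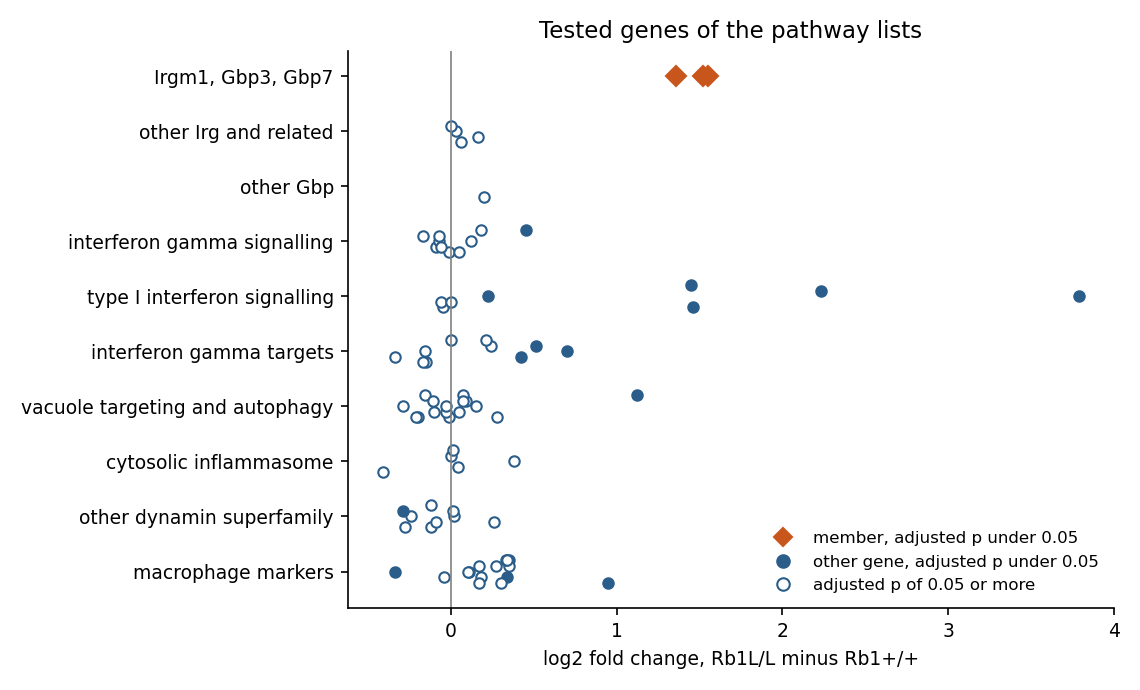
Log2 fold change, Rb1L/L minus Rb1+/+, of each tested gene of the pathway lists and of the macrophage markers, with filled circles for genes past an adjusted p of 0.05 and orange diamonds for the members. The members lie between 1.36 and 1.55, where Stat2 (1.46) and Irf9 (1.45) of the type I interferon list also lie.

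The genes on either side of the members were compared too, taking 5 tested genes on each side of each member locus in the reference gene order. Of 40 such neighbours 1 rose and 1 fell, with a median log2 fold change of 0.03, shares below the 7.12% and 5.08% of all genes that rose and fell. Beside Irgm1, the small nucleolar RNA gene Snord96a rose by 0.42 (adjusted p = 0.0288) and the zinc finger gene Zfp62 fell by 0.22 on the log2 scale (adjusted p = 0.0491, or 0.0579 with the replicate block). None of the 10 neighbours of the Gbp group on chromosome 3 and none of the 10 around Iigp1 passed. Genes without a cluster of their own were passed over in this count. Among them were Tgtp1 and Tgtp2, which lie near Irgm1 on chromosome 11 and whose shared clusters rose by 1.07 and 1.00.

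The genes whose profile over the 6 arrays was most like that of the members were found by the root mean square difference from the mean profile of Irgm1, Gbp3 and Gbp7, each gene centred on its own mean. Predicted genes, genes named only by a clone and small RNAs were left out of this ranking. Of the other genes Stat2 was nearest at 0.09, followed by H2-Q4, a class I gene, at 0.10 and by Ifi35, Parp12 and Parp14 at 0.12. The members themselves lay at 0.10 (Irgm1), 0.11 (Gbp3) and 0.10 (Gbp7) from their mean, to which each of them contributes. H2-Q4 rose by 1.51 ± 0.08 (SE), Ifi35 by 1.63, Parp12 by 1.49 and Parp14 by 1.35. Genes picked for a profile like that of the members rise by selection, so these rises only describe them.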

How the data were processed

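Total RNA of 3 Rb1L/L and 3 Rb1+/+ MEF cultures was labelled with biotin and hybridised to Affymetrix arrays, per the labels. The authors deposited log2 values; the submitters' processing notes name RMA and Partek, without versions or settings. RMA subtracts background and forces the arrays onto 1 distribution, which compresses folds of dim genes and hides a change shared by most genes. Of 35556 clusters, 21789 carried 1 symbol, 1621 several and 12146 none; 21698 matched the reference gene table (GRCm38.p6) and the others kept the annotation's symbol. Coordinates are those of the RefSeq promoter table; the sources used here do not give the build of the array annotation.

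A gene was tested if its 6-array mean exceeded a floor of log2 5.084, below which 90% of 1190 olfactory and vomeronasal receptor genes lay. The test used limma 3.58.1 in R 4.3.3 (lmFit, eBayes, no block), with p-values adjusted over every gene tested (Benjamini-Hochberg) and called under 0.05. The labels list 3 cultures a genotype as samples of their own without saying that they came from different embryos, so p-values measure the spread between these samples. Same-numbered arrays deviated together from their group means (correlations of 0.30, 0.24 and 0.30 for numbers 1 to 3), and the design text speaks of pairs; the fit with the replicate block is given where it changes a call. The members and lists were chosen with earlier results of these data known, and no list is tested as a set. Named are all members, all family clusters, up to 4 called genes of each pathway list by p-value, the 5 nearest profiles and called neighbours; other list genes are named after their values were seen, for what they are known to do, or because the block changed their call. Shared clusters were fitted together with all named clusters, an alternative added after seeing the data. The procedure was tested on simulated data.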

Additional observations from a re-analysis of the deposited data

Results flagged for a closer look

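Clusters annotated to more than 1 gene were outside the gene-level comparison, and 5 of those in the Irg and Gbp families carried a signal that passed in the limma fit over named clusters. The cluster of Irgm2 and Igtp rose by 2.09 on the log2 scale (adjusted p = 0.00168) and that of Gbp2 and Gbp2b by 1.74 (adjusted p = 0.0011). The 2 clusters of Tgtp1 and Tgtp2, effector genes, rose by 1.07 and 1.00 (adjusted p = 0.0217 and 0.0185). The cluster of Gm4070 and Gvin1 rose by 0.55 (adjusted p = 0.0311). Of all named clusters tested 7.85% rose. Other shared clusters of these families, such as those of Ifi47 and of 9930111J21Rik1 and 9930111J21Rik2, did not pass. Every Rb1L/L array lay above every Rb1+/+ array in these 5 clusters, as in 16.2% of all tested genes. The 5 were picked for passing the test, so this separation only describes them. The probes do not tell which of the genes named on a cluster changed.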

How the results depend on the processing

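Irgm1, Gbp3 and Gbp7 passed and kept their direction under all 18 alternatives (replicate block, trended or robust variance, array weights, median centring, quantile normalization, filters, mean of clusters, and leaving out arrays or pairs), at 1.39 to 1.63, 1.37 to 1.76 and 1.23 to 1.55, with limma adjusted p up to 0.017, 0.0348 and 0.0367. The difference of Iigp1 was 0.12 to 0.20. The shared clusters of Irgm2 and Igtp (1.91 to 2.34) and of Gbp2 and Gbp2b (1.63 to 1.91) passed in all 11 fits tried. The Tgtp clusters lost their call in 6 and 4 of 11 fits, and that of Gm4070 and Gvin1 in 8. Counts moved more. Leaving out arrays or pairs gave 92 to 1441 called genes in place of 1885 (87 to 850 of 1100 higher, 5 to 591 of 785 lower). It gave 4 to 8 in place of 10 higher genes over the pathway lists, and 0 to 2 in place of 1 lower. It gave 0 to 1 higher and 0 lower neighbours in place of 1 each. With the replicate block 4 pathway genes were lower and 0 neighbours; beyond the calls named beside their results it changed none of those reported. Median centring gave 3 lower pathway genes and 2 lower neighbours, quantile normalization 3 lower pathway genes, the stricter floor 2 and 2, and the trended variance and the fit without the floor 0 lower neighbours each. The cause of these moves was not tested; the left-out fits have fewer arrays. Values near the floor of log2 5.084 understate folds.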
